A study of Mus musculus with 48 samples.

Results

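The mitochondrial carrier family Slc25 was followed in mouse liver as every gene whose symbol reads Slc25a and a number. Probe sets annotated with exactly 1 such symbol were taken, and where a gene had several, the one with the highest mean signal stood for it. This gave 44 carriers, measured by 93 probe sets, out of 18193 genes with 1 symbol. Carriers without a probe set of their symbol alone were not analysed here. One further probe set carried Slc25a37 beside another symbol and was left out.

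The arrays came from livers of male C57BL/6J mice, all of which had first eaten a fat-rich diet with little protein for its carbohydrate (L-P/C-HF) over 10-wk and, per the methods, had been chosen for poor glucose tolerance. Mice were then either moved to one with much protein for its carbohydrate (H-P/C-HF, labelled HPHC) or kept on L-P/C-HF (labelled HFHC), for 4-wk or 2-d, which gave H-P/C-HF 4-wk, L-P/C-HF 4-wk, H-P/C-HF 2-d and L-P/C-HF 2-d groups of 12 mice each with 1 array per mouse. Fat was the same share of energy in both diets, so protein replaced carbohydrate. Array B25, of the H-P/C-HF 2-d group, was left out as in the methods, which leaves 11 mice there and 47 in all.

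Levels are log2 values from RMA, so a difference of 1 is a 2-fold change. P-values below are from limma across all genes, except where one-way ANOVA is named. Adjusted p-values are by the Benjamini-Hochberg method. Array medians lay between 6.73 and 6.91, and no columns were identical. Hepatocyte markers averaged between 13.65 and 14.03 in every mouse used, as the liver label implies. Arrays A09, B25, A01 and A24 had the lowest median correlations with the other arrays, and A09, A01 and A24 are L-P/C-HF mice that were kept. Whole liver was assayed, so fewer cells of a type and less RNA per cell cannot be told apart. Feeding duration differs together with age, day of killing and a fasted glucose test that only the 4-wk mice had late in the diet period, and these cannot be told apart.

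Slc25 proteins sit mostly in the inner mitochondrial membrane and exchange a metabolite of the matrix for one of the cytosol, which the membrane would otherwise keep apart. Liver depends on them for several pathways that are split between these compartments: the urea cycle needs ornithine and aspartate carried across, fatty acid synthesis needs citrate exported, fatty acid oxidation needs acylcarnitine imported, and ATP synthesis needs ADP and phosphate brought in. A diet richer in protein sends more nitrogen through the urea cycle, and one poorer in carbohydrate leaves less substrate for fatty acid synthesis, so the ornithine, aspartate and citrate carriers are the members closest to the dietary question.

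Upstream sequence is shown for the 4 members on whose changes with feeding duration the results below turn: Slc25a4, Slc25a1, Slc25a13 and Slc25a25. Each run is the 250 bases before an annotated RefSeq start on GRCm38.p6, read 5′ to 3′ on the gene's own strand, which is the minus strand in all 4. Capitals mark CACGTG (the E-box), TGACGTCA (the cAMP response element) and CCAAT or its complement ATTGG, searched on both strands. In these 4 windows no marked motifs overlap. The windows are chr8:46211063-46211312 for Slc25a4, chr16:17928220-17928469 for Slc25a1, chr6:6217174-6217423 for Slc25a13, and chr2:32424067-32424316 for 1 of the 3 starts of Slc25a25, the one that holds a cAMP response element.
Slc25a4: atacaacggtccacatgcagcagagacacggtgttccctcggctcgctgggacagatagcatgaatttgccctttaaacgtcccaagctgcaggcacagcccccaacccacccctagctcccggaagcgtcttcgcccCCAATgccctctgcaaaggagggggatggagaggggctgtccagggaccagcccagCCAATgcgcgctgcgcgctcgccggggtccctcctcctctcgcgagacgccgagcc
Slc25a1: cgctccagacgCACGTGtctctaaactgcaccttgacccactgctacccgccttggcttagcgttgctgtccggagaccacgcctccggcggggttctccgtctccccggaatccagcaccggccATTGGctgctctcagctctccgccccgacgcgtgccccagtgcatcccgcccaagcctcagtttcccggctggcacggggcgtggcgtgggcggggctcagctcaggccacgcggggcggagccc
Slc25a13: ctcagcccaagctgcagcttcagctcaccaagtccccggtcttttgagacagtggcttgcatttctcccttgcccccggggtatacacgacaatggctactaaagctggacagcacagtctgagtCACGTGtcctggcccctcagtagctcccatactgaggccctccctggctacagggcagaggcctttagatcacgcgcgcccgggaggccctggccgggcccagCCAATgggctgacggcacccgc
Slc25a25: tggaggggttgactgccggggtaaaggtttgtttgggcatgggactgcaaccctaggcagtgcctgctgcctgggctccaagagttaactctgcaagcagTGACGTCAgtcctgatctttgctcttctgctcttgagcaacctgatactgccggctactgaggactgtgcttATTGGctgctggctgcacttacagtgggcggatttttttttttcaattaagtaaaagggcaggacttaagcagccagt
An E-box stood in the window of Slc25a1 and of Slc25a13 and in none of Slc25a4 or of this Slc25a25 start. Of the 44 carriers, 34 had a promoter in the RefSeq table, with 43 windows. E-box letters were in 8 of these windows (18.6%), against 6.02% of all 32851 windows of the same length, and belonged to Slc25a1, Slc25a13, Slc25a14, Slc25a15, Slc25a31, Slc25a33 and Slc25a36. The cAMP response element was in 2 windows (4.65%, against 1.55% of all), those of Slc25a25 and Slc25a36, and CCAAT in 20 (46.5%, against 33.8%). A match of letters is a description of these windows and not a bound site.

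Signal differs between probe sets for reasons other than transcript amount, so members are compared between groups and not with each other. Among carriers of ornithine and basic amino acids, the mean level over the 47 mice was 12.43 for Slc25a15, the mitochondrial ornithine carrier, and 6.31 for Slc25a2, a second ornithine carrier. Aspartate and glutamate carriers lay between 11.44 (Slc25a22, a glutamate carrier) and 6.44 (Slc25a18, another glutamate carrier). The group of glycine and other amino acid carriers lay between 9.88 (Slc25a44, a branched-chain amino acid carrier) and 8.05 (Slc25a48). Slc25a48 is a choline carrier that was placed in this group, although choline is not an amino acid. The citrate and dicarboxylate group lay between 11.78 (Slc25a1, the citrate carrier) and 10.35 (Slc25a11, the oxoglutarate-malate carrier). Slc25a20, which imports acylcarnitine for oxidation, was the only member of its group, at 11.53.

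In the ADP, ATP and phosphate group the range ran from 13.02 (Slc25a3, the phosphate carrier) to 4.15 (Slc25a31, the ADP/ATP carrier of testis). Nucleotide and cofactor carriers lay between 10.95 (Slc25a51, the NAD carrier) and 6.71 (Slc25a36, a pyrimidine nucleotide carrier). The iron and glutathione group lay between 13.23 (Slc25a39) and 6.44 (Slc25a40), both glutathione carriers. Carriers like the uncoupling proteins lay between 10.76 (Slc25a30) and 6.23 (Slc25a35), and the remaining members between 13.15 (Slc25a47, a carrier found mainly in liver) and 4.80 (Slc25a54). The lowest signals, those of Slc25a31, Slc25a41 (4.46) and Slc25a54, came with no detection calls, so whether they exceed background was not tested. The brightest probe sets of Slc25a5 and Slc25a39 are of the array's x_at class, which can also bind transcripts of other genes.

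**Figure D1:**
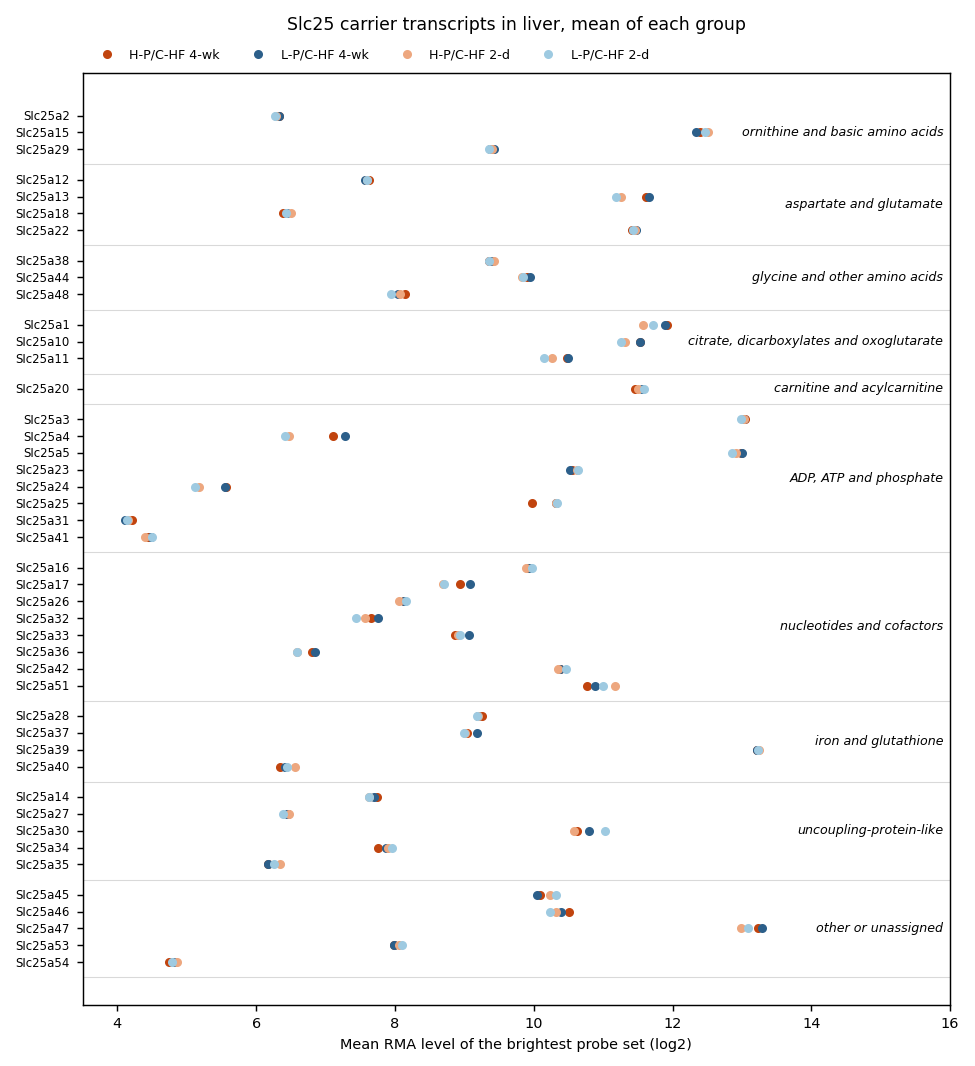
Mean RMA level (log2) of the brightest probe set of each of the 44 Slc25 carriers, by substrate group, with 1 point for each of the 4 groups of mice. The points of a gene nearly coincide for most carriers, and for Slc25a4, Slc25a13 and Slc25a24 both 4-wk means lie to the right of both 2-d means; positions of different genes are not comparable as amounts of transcript.

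The first question was whether exchanging carbohydrate for protein changed the carriers' transcripts. No member passed at an adjusted p under 0.05 by limma at 2-d (0 of 44, against 0.044% of all genes) or at 4-wk (0 of 44, against 0% of all genes). An ordinary one-way ANOVA, without the error adjustment of the methods, gave 0 members at the methods' threshold of 0.001 at both durations. Of all 18193 genes, it gave 18 at 2-d and 23 at 4-wk, so few members could be looked for there. The paper, with that adjustment and counting transcripts, reported many more at both durations at the same threshold. The yield of the ordinary ANOVA is therefore not that of the study's method. At an unadjusted p under 0.05, 1 member was called at 2-d (3.66% of all genes were) and 2 at 4-wk (2.99% of all genes). The median change over the 44 members was 0.02 at 2-d and -0.02 at 4-wk, beside 0.01 and -0.02 over all genes. The 95% interval lay within 0.5 on the log2 scale (1.41-fold) for 43 members at 2-d, Slc25a30 being the exception, and for 42 at 4-wk, with Slc25a25 and Slc25a30 beyond it.

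**Figure D2:**
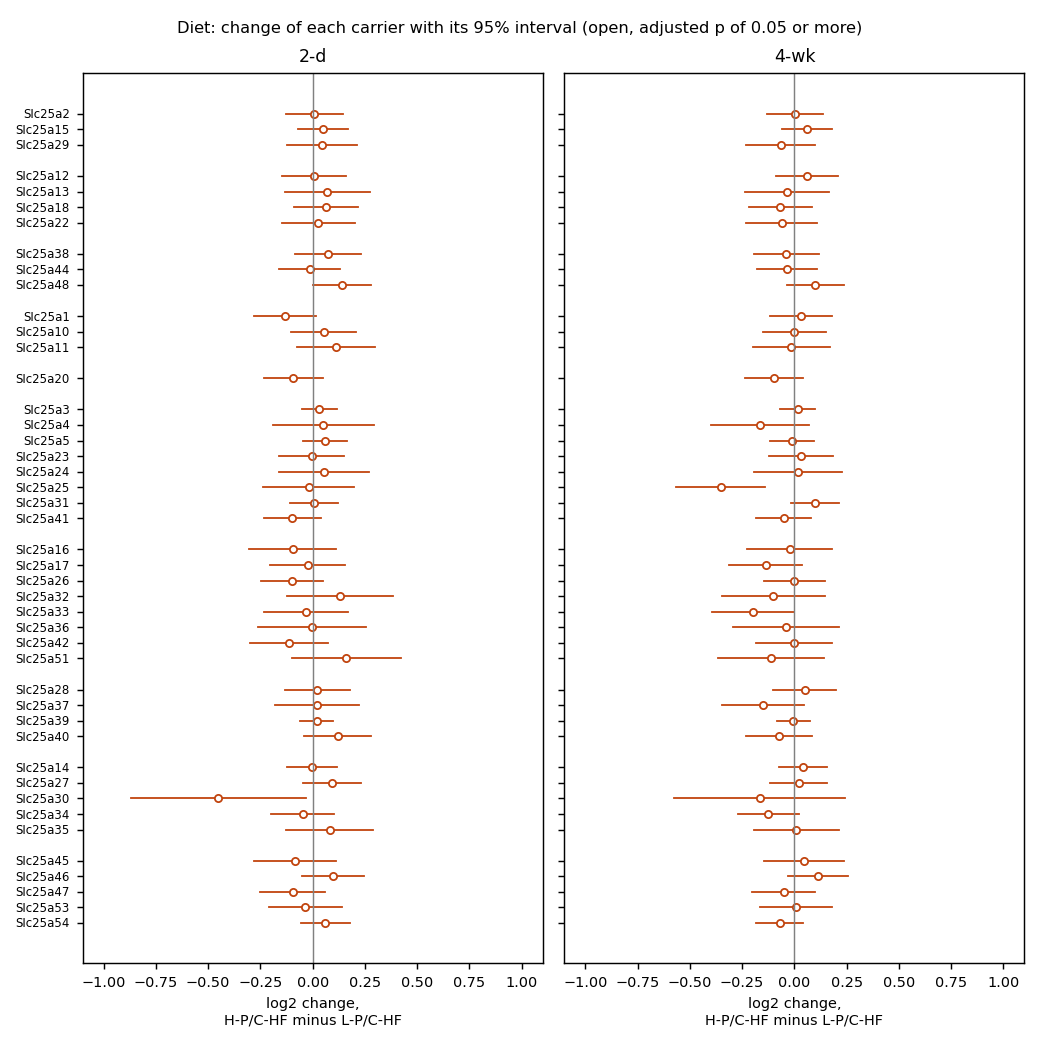
Log2 change on H-P/C-HF, less the level on L-P/C-HF, of each Slc25 carrier at 2-d (left) and 4-wk (right), with its 95% interval from limma; blank rows separate the substrate groups. All points are open, since none of the 44 members passed at an adjusted p under 0.05 at either duration, and most intervals span 0.

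Slc25a15 returns ornithine from the cytosol to the matrix, where the urea cycle begins. At 2-d its lowest, median and highest levels were 12.22, 12.56 and 12.82 in H-P/C-HF livers, against 12.22, 12.46 and 12.65 in L-P/C-HF livers. At 4-wk they were 12.18, 12.40 and 12.57 in H-P/C-HF livers, against 11.98, 12.36 and 12.53 in L-P/C-HF livers. The diets overlapped over nearly their whole range. Its change was 0.05 (95% interval -0.07 to 0.17, adjusted p = 1) at 2-d and 0.06 (-0.06 to 0.18, adjusted p = 0.999) at 4-wk, and Slc25a29, a carrier of basic amino acids, gave 0.04 and -0.07.

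Among the enzymes around Slc25a15, 1 passed. All 7 genes of the urea cycle list (Cps1, Nags, Otc, Ass1, Asl, Arg1 and Oat) had a positive diet change at both durations. Of all 18193 genes, 9679 were positive at 2-d and 7291 at 4-wk. The list medians were 0.20 at 2-d and 0.07 at 4-wk. The 2-d median is the value of Ass1, whose probe set was the dimmest of the list (mean level 8.57). The gene that passed at 2-d was Oat, ornithine aminotransferase. Its lowest, median and highest levels at 2-d were 13.02, 13.28 and 13.63 in H-P/C-HF livers, against 12.10, 12.91 and 13.34 in L-P/C-HF livers. Oat rose by 0.44 at 2-d (95% interval 0.25 to 0.62, adjusted p = 0.0424), with 11 of 11 mice given H-P/C-HF over the median of the other diet and the ranges overlapping. At 4-wk its change was 0.29 (0.11 to 0.47, adjusted p = 0.999). Cps1 (0.23) and Asl (0.33), the entry enzyme and the lyase of the cycle, each had an adjusted p of 0.562 at 2-d. The paper lists Asl and Ass1 among its differentially expressed genes at 2-d, by its own ANOVA at a threshold of 0.001. Array A09 gave the lowest L-P/C-HF 2-d level of Cps1 (12.61), Otc (12.22), Asl (11.46), Arg1 (13.56) and Oat (12.10). For Nags and Ass1 it did not. Changes of these enzymes without A09 are not reported here.

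Slc25a12 (aralar) and Slc25a13 (citrin, the liver form) send mitochondrial aspartate out in exchange for glutamate, for the urea cycle and for the malate-aspartate shuttle. Slc25a13 averaged 11.26 ± 0.21 in H-P/C-HF livers and 11.19 ± 0.39 in L-P/C-HF livers at 2-d (SD, n = 11 and 12), a change of 0.07 (95% interval -0.13 to 0.28). At 4-wk it averaged 11.62 ± 0.15 in H-P/C-HF livers and 11.66 ± 0.19 in L-P/C-HF livers (n = 12 each), a change of -0.04 (-0.24 to 0.16). Slc25a12 gave 0.01 and 0.06, Slc25a22 0.03 and -0.06, and Slc25a18 0.06 and -0.07, and none of these passed. Of the 4 shuttle enzymes on the list, Got1, the cytosolic aspartate aminotransferase, had the largest diet value. Its change was 0.61 at 2-d (0.31 to 0.91, adjusted p = 0.205) and 0.36 at 4-wk (0.07 to 0.65, adjusted p = 0.999). Array A09 gave the lowest L-P/C-HF 2-d level of Got1 (10.59), and its change without A09 is not reported here. The paper lists Got1 among its differentially expressed genes at both durations, by its own ANOVA at a threshold of 0.001.

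Slc25a1 exports citrate, from which the cytosol makes acetyl-CoA for fatty acids and sterols. At 2-d its lowest, median and highest levels were 11.17, 11.68 and 11.80 in H-P/C-HF livers, against 11.37, 11.77 and 11.96 in L-P/C-HF livers, and 10 of 11 mice given H-P/C-HF were under the median of the other diet. The change was -0.13 (95% interval -0.28 to 0.02, unadjusted p = 0.082), one of the 3 smallest p-values of the family at 2-d. At 4-wk it was 0.03 (-0.12 to 0.18). In the citrate supply and use list at 2-d, 4 of the 5 measured genes were negative at an unadjusted p under 0.05 and 0 passed, the smallest adjusted p being 0.753: Me1 (malic enzyme) gave -0.51, Fasn (fatty acid synthase) -0.54, Acly (ATP citrate lyase) -0.33 and Acaca (acetyl-CoA carboxylase) -0.26. At 4-wk 0 of the 5 had an unadjusted p under 0.05. The paper, by its own ANOVA, has Acly and Fasn among the regulated targets of transcription factors at 2-d. The dicarboxylate carrier Slc25a10 (0.05 and 0.00) and Slc25a11 (0.11 and -0.01) did not pass at 2-d or at 4-wk.

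Slc25a25, a calcium-regulated carrier that exchanges ATP-Mg for phosphate, had the smallest diet p-value of the family at 4-wk. Its lowest, median and highest levels were 9.70, 9.94 and 10.28 in H-P/C-HF livers, against 9.74, 10.36 and 10.98 in L-P/C-HF livers. All 12 mice given H-P/C-HF were under the median of the other diet, though the ranges overlapped. The change was -0.35 (95% interval -0.57 to -0.14, unadjusted p = 0.00162), with an adjusted p of 0.999. Its other probe sets gave -0.01 and -0.18 (unadjusted p = 0.816 and 0.0363). At 2-d the change was -0.02 (-0.24 to 0.20), where H-P/C-HF livers spread more widely (9.42, 10.45 and 10.82) than L-P/C-HF livers (10.10, 10.36 and 10.58).

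The other carriers of this group had smaller diet values. Slc25a5, a widely expressed ADP/ATP carrier, gave 0.06 at 2-d and -0.01 at 4-wk, and Slc25a3 0.03 and 0.02, with intervals within -0.07 to 0.12 for Slc25a3. Slc25a4, the ADP/ATP carrier of heart and muscle, gave 0.05 (-0.19 to 0.29) and -0.17 (-0.40 to 0.07), and its second probe set gave -0.24 at 4-wk (unadjusted p = 0.0251). Slc25a31 gave 0.10 at 4-wk (unadjusted p = 0.0904), the third smallest p at that duration.

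Slc25a30, named for its likeness to the uncoupling proteins, was the single member with an unadjusted p under 0.05 at 2-d. Its lowest, median and highest levels were 10.01, 10.40 and 11.52 in H-P/C-HF livers, against 9.38, 11.13 and 12.06 in L-P/C-HF livers, so that 10 of 11 mice given H-P/C-HF were under the median of the other diet although the lowest mouse of all, array A09, was on L-P/C-HF. The change was -0.45 (95% interval -0.87 to -0.03, unadjusted p = 0.0353, adjusted p = 1). Its other probe sets gave -0.46, -0.48 and -0.44, and 0.07 for the dimmest, whose mean level was 4.42. Without A01, A09 and A24 the change at 2-d was -0.54 (unadjusted p = 0.00694), which did not pass after adjustment either. At 4-wk the change was -0.17 (-0.58 to 0.24).

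Slc25a33, a pyrimidine nucleotide carrier, was the second member with an unadjusted p under 0.05 at 4-wk, at -0.20 (95% interval -0.39 to 0.00, unadjusted p = 0.0478). Slc25a48 gave 0.14 at 2-d (unadjusted p = 0.050) and 0.10 at 4-wk, where 11 of 12 mice given H-P/C-HF were over the median of the other diet. Its dimmer probe sets (mean levels 6.05 and 5.32) gave 0.20 and 0.08 at 2-d, and had the other sign at 4-wk (-0.041 and -0.055). Slc25a38, which carries glycine for haem synthesis, gave 0.08 and -0.04, Slc25a44 -0.01 and -0.04, Slc25a20 -0.09 and -0.10, and Slc25a47 -0.10 and -0.05. None of these passed. Over the whole family, diet changes ran from -0.45 to 0.16 at 2-d and from -0.35 to 0.11 at 4-wk.

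Over both durations together, 0 of 44 members passed, against 0.11% of all genes, and 4 had an unadjusted p under 0.05, against 4.99%. These were Slc25a48 (0.12), Slc25a46 (0.11), Slc25a25 (-0.19) and Slc25a30 (-0.31), with adjusted p-values between 0.812 and 0.987. The dimmer probe sets of Slc25a48 gave 0.08 and 0.01 (unadjusted p = 0.205 and 0.783). Slc25a46 shapes the mitochondrial outer membrane and carries no known substrate. Among the 39 measured partner genes, Oat (0.36, adjusted p = 0.00471) and Got1 (0.48, adjusted p = 0.0324) rose. The diet effect itself was not shown to differ between durations for any member (0 of 44 passed, against 0% of all genes). Slc25a25 alone had an unadjusted p under 0.05 for that difference (-0.33, 95% interval -0.64 to -0.03, unadjusted p = 0.032), against 1.49% of all genes. Its other probe sets gave -0.08 and -0.03 for that difference.

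**Figure D3:**
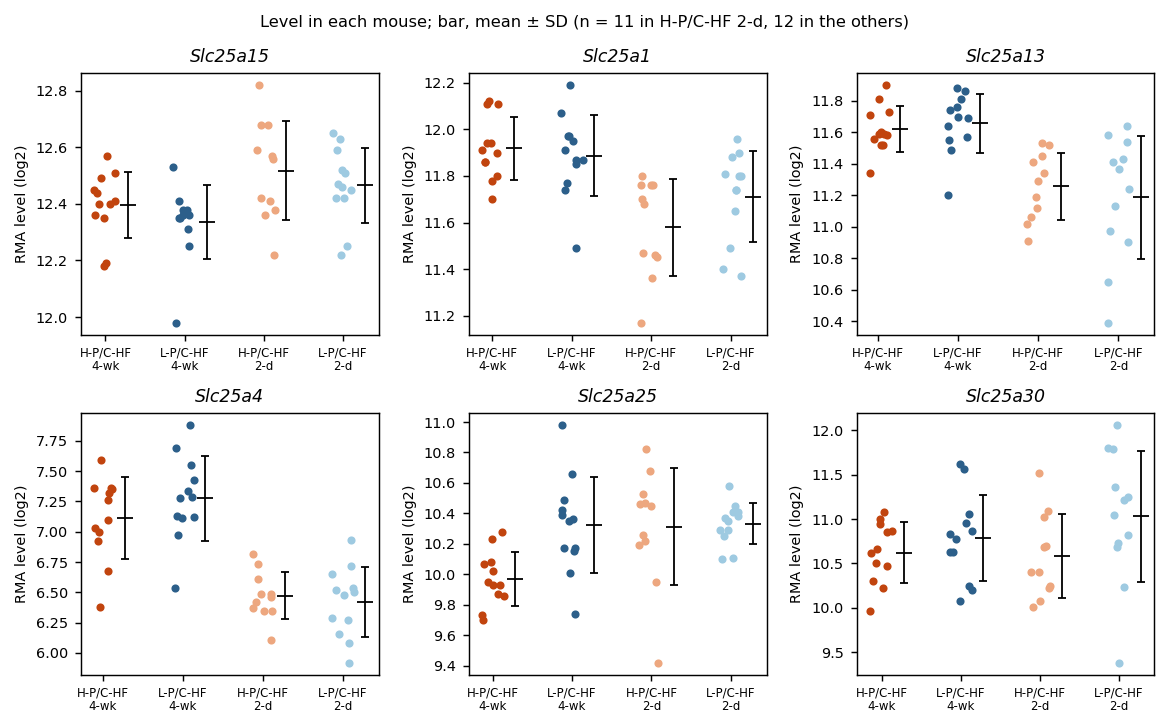
RMA level (log2) of 6 Slc25 carriers in each mouse of the 4 groups, with the mean ± SD beside the points (n = 11 for H-P/C-HF 2-d, 12 for the others). Slc25a15 overlaps between diets at both durations, all H-P/C-HF mice at 4-wk lie under the median that Slc25a25 had in L-P/C-HF mice, and Slc25a4 is higher at 4-wk than at 2-d in both diets.

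The second question was how the carriers differed between 4-wk and 2-d of feeding. Within H-P/C-HF, 4 members rose (Slc25a4, Slc25a1, Slc25a24 and Slc25a13; 4.01% of all genes rose) and 1 fell (Slc25a25; 1.75% of all genes fell). Within L-P/C-HF, 6 members rose (Slc25a4, Slc25a13, Slc25a17, Slc25a24, Slc25a11 and Slc25a10; 4.46% of all genes) and 0 fell (1.14% of all genes). At an unadjusted p under 0.05 there were 14 of 44 members in each diet, against 17.5% of genes within H-P/C-HF and 15.8% within L-P/C-HF. The median change over the members was 0.03 within H-P/C-HF and 0.04 within L-P/C-HF, beside -0.02 and 0.01 over all genes. Members called in 1 diet and not in the other are not thereby shown to differ between diets, since 0 members passed the test of that difference.

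A measure of RNA quality moved with duration. The 3′ minus 5′ signal of the Gapdh and beta-actin control probe sets, which grows when transcripts are shortened, averaged 0.27 ± 0.11 at 4-wk and 0.48 ± 0.13 at 2-d in H-P/C-HF livers (SD, n = 12 and 11), and 0.24 ± 0.07 at 4-wk and 0.48 ± 0.19 at 2-d in L-P/C-HF livers (n = 12 each). With this signal as a covariate, the genes called for duration numbered 378 instead of 1047 within H-P/C-HF and 295 instead of 1020 within L-P/C-HF. Of the members, Slc25a4 and Slc25a51 were then called within H-P/C-HF and Slc25a4 within L-P/C-HF. Between diets the signal was alike at each duration, and with the covariate 0 members were called for diet.

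Slc25a4 had the largest rise of the family. Its lowest, median and highest levels in H-P/C-HF livers were 6.38, 7.18 and 7.59 at 4-wk, against 6.11, 6.46 and 6.82 at 2-d. In L-P/C-HF livers they were 6.54, 7.29 and 7.88 at 4-wk, against 5.92, 6.49 and 6.93 at 2-d. All but 1 of the 24 mice fed for 4-wk lay above the 2-d median of their diet, and the ranges overlapped. Slc25a4 rose by 0.64 within H-P/C-HF (95% interval 0.40 to 0.88, 1.56-fold, adjusted p = 0.000275) and by 0.86 within L-P/C-HF (0.62 to 1.09, 1.81-fold, adjusted p = 7.01e-07). With the RNA quality covariate the values were 0.56 (adjusted p = 0.0154) and 0.76 (adjusted p = 0.000469). Of its 4 probe sets, 3 gave between 0.44 and 0.86 in the 2 diets, and the dimmest (mean level 4.55) gave 0.03 and 0.00.

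Carriers of citrate, dicarboxylates and oxoglutarate had positive changes with duration in all 3 members and both diets. Slc25a1 averaged 11.92 ± 0.14 at 4-wk and 11.58 ± 0.21 at 2-d in H-P/C-HF livers, and 11.89 ± 0.18 at 4-wk and 11.71 ± 0.20 at 2-d in L-P/C-HF livers. It rose by 0.34 within H-P/C-HF (95% interval 0.19 to 0.49, adjusted p = 0.00215, 12 of 12 mice above the 2-d median), and gave 0.18 within L-P/C-HF (0.03 to 0.32, adjusted p = 0.179). Slc25a10 rose by 0.27 within L-P/C-HF (adjusted p = 0.0201) and gave 0.22 within H-P/C-HF (adjusted p = 0.0905). Slc25a11 rose by 0.34 within L-P/C-HF (adjusted p = 0.0134) and gave 0.22 within H-P/C-HF (adjusted p = 0.185). With the RNA quality covariate none of these was called. Slc25a1 then stood at 0.23 within H-P/C-HF (unadjusted p = 0.00613, adjusted p = 0.156) and 0.05 within L-P/C-HF, Slc25a10 at 0.11 and 0.15, and Slc25a11 at -0.08 and 0.00. The Slc25a10 and Slc25a11 calls within L-P/C-HF were also lost with ordinary one-way ANOVA (adjusted p = 0.074 and 0.0825) and with a separate fit of the groups compared (0.0593 and 0.0539), and that of Slc25a10 with median centring (0.0528). Of the citrate partners, fitted with groups only, Me1 rose by 1.30 within H-P/C-HF (adjusted p = 1.85e-07) and 0.87 within L-P/C-HF (adjusted p = 0.000166), and Fasn rose by 0.73 within H-P/C-HF (adjusted p = 0.00536).

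Slc25a13 rose in both diets, by 0.36 within H-P/C-HF (95% interval 0.16 to 0.57, adjusted p = 0.0207) and 0.47 within L-P/C-HF (0.27 to 0.67, adjusted p = 0.00139). Its lowest, median and highest levels in H-P/C-HF livers were 11.34, 11.59 and 11.90 at 4-wk, against 10.91, 11.29 and 11.53 at 2-d, and all 12 mice fed for 4-wk lay above the 2-d median. In L-P/C-HF livers they were 11.20, 11.70 and 11.88 at 4-wk, against 10.39, 11.30 and 11.64 at 2-d. With the RNA quality covariate its values were 0.05 (adjusted p = 0.917) and 0.12 (adjusted p = 0.842), and without the twelfth H-P/C-HF 2-d mouse its adjusted p within H-P/C-HF was 0.0538. Slc25a12, Slc25a18 and Slc25a22 did not pass in either diet. Mdh1, the cytosolic malate dehydrogenase of the shuttle, fitted with groups only, rose by 0.18 within L-P/C-HF (adjusted p = 0.00966).

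Among calcium-regulated ATP-Mg/phosphate carriers, Slc25a24 rose and Slc25a25 fell within H-P/C-HF. Slc25a24 rose by 0.39 within H-P/C-HF (adjusted p = 0.0178) and 0.42 within L-P/C-HF (adjusted p = 0.00691). Its signal was low, with medians of 5.54 at 4-wk and 5.16 at 2-d in H-P/C-HF livers and of 5.48 at 4-wk and 5.17 at 2-d in L-P/C-HF livers, and its second probe set gave 0.09 and 0.11. Neither call was kept with the RNA quality covariate, at 0.29 (adjusted p = 0.326) and 0.31 (adjusted p = 0.349). Slc25a25 fell by 0.34 within H-P/C-HF (95% interval -0.56 to -0.13, adjusted p = 0.0471), where all 12 mice at 4-wk lay below the 2-d median, and gave -0.01 within L-P/C-HF (-0.22 to 0.20). Its other probe sets did not repeat this gap between the diets. One (mean level 7.32) gave -0.03 within H-P/C-HF and 0.05 within L-P/C-HF. The dimmest (6.43) gave -0.25 and -0.22 (unadjusted p = 0.0052 and 0.0102). The Slc25a25 call was kept for 18 of the 47 arrays left out in turn and lost for the rest. Without H-P/C-HF 2-d mouse 2 the adjusted p was 0.114. Including B25 gave 0.0943. Its change with the RNA quality covariate was -0.40 (unadjusted p = 0.00214, adjusted p = 0.0809).

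Slc25a17, a cofactor carrier of peroxisomes, rose by 0.37 within L-P/C-HF (adjusted p = 0.00486) and gave 0.25 within H-P/C-HF (adjusted p = 0.0863). With the RNA quality covariate these were 0.13 and 0.05, neither called, and with probe sets averaged the change within L-P/C-HF was 0.17 (adjusted p = 0.171). Slc25a51 gave -0.39 within H-P/C-HF (adjusted p = 0.0615), with all 12 mice at 4-wk below the 2-d median, and -0.12 within L-P/C-HF. With the covariate it stood at -0.57 (adjusted p = 0.0174) and -0.32 (adjusted p = 0.492). Its other probe sets gave -0.38 and -0.73 within H-P/C-HF and -0.17 and -0.52 within L-P/C-HF, all of 1 sign. Slc25a47 gave 0.24 within H-P/C-HF (adjusted p = 0.0507) and 0.20 within L-P/C-HF. Slc25a15 gave -0.12 and -0.13 (adjusted p = 0.276 and 0.239, and 0.19 and 0.23 when its probe sets were averaged), Slc25a5 0.07 and 0.14, Slc25a3 0.02 and 0.04, Slc25a20 -0.04 and -0.04, Slc25a38 -0.08 and 0.04, and Slc25a44 0.08 and 0.10.

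**Figure D4:**
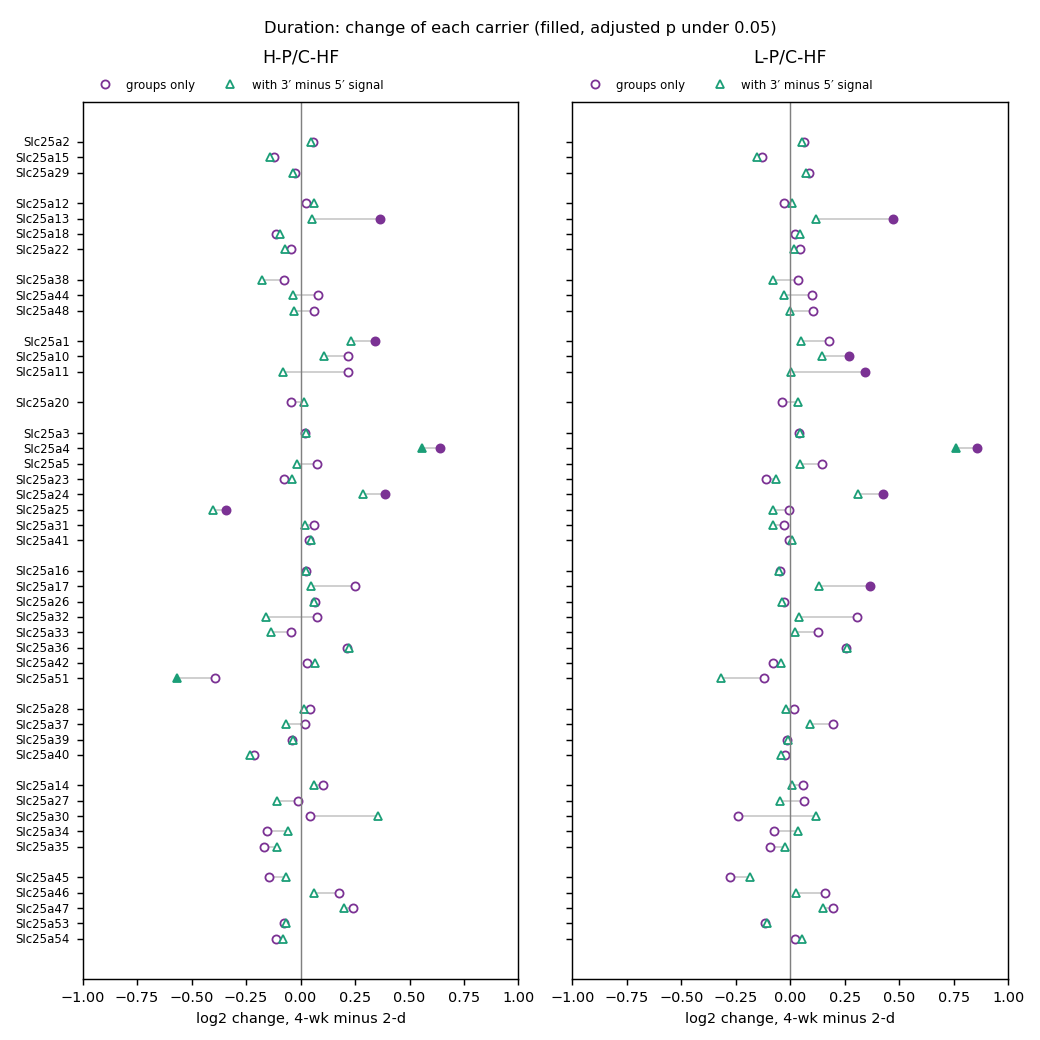
Log2 change, 4-wk minus 2-d, of each Slc25 carrier within H-P/C-HF (left) and L-P/C-HF (right), from the fit with groups only (circles) and with the 3′ minus 5′ control signal as a covariate (triangles). Filled marks passed at an adjusted p under 0.05; Slc25a4 is filled in both fits, Slc25a51 is filled with the covariate within H-P/C-HF, and Slc25a13, Slc25a1, Slc25a10, Slc25a11, Slc25a17, Slc25a24 and Slc25a25 are open with it.

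Markers of other liver cells also moved with duration. Of 11 Kupffer cell markers, 9 rose within H-P/C-HF (median change 0.91) and 11 within L-P/C-HF (1.11). Their mean level per mouse ranged from 8.25 to 9.80 at 4-wk and from 8.12 to 8.98 at 2-d in H-P/C-HF livers, and from 8.94 to 10.42 at 4-wk and from 8.11 to 9.29 at 2-d in L-P/C-HF livers. Of 6 endothelial markers 5 rose in each diet, and of 6 stellate cell markers 4 did. Fabp4 rose among 3 adipocyte markers (1.29 within H-P/C-HF and 0.98 within L-P/C-HF) and Hnf4a fell among 7 hepatocyte markers (by 0.30 and 0.29), both named after their values were seen. None of the skeletal muscle (5), lymphocyte (5), cholangiocyte (4), erythroid (3) and pancreatic acinar (3) markers passed. With the RNA quality covariate, 6 Kupffer cell, 4 endothelial and 4 stellate cell markers rose within H-P/C-HF. Within L-P/C-HF, 9, 5 and 3 did. With it, 0 adipocyte and 0 hepatocyte markers were called in either diet, so the Fabp4 and Hnf4a calls were not kept. Beside Slc25a4, the carrier of heart and muscle, the mean muscle marker level ranged from 5.69 to 6.15 at 4-wk and from 5.84 to 6.19 at 2-d in H-P/C-HF livers, and from 5.93 to 7.35 at 4-wk and from 5.75 to 6.29 at 2-d in L-P/C-HF livers. RMA values hold no zeros, so none of these markers was listed at 0. With the mean Kupffer cell marker level of each mouse as a covariate, an alternative added after the data were seen, Slc25a4 gave 0.39 within H-P/C-HF (adjusted p = 0.234) and 0.54 within L-P/C-HF (adjusted p = 0.119), Slc25a1 gave 0.40 within H-P/C-HF (adjusted p = 0.0143), and no other member passed.

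For diet, 0 of the 11 Kupffer cell markers passed at 4-wk, where all 11 were negative with a median of -0.33 and 5 had an unadjusted p under 0.05. At 2-d 0 passed and 0 had an unadjusted p under 0.05, and over both durations 0 passed and 6 had an unadjusted p under 0.05. With the same covariate the diet change of Slc25a25 at 4-wk was -0.39, beside -0.35 without it.

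Of the 44 carriers, 23 had more than 1 probe set, and these did not always move together with duration. All probe sets of a gene had 1 sign for 9 of the 23 carriers within H-P/C-HF and for 8 within L-P/C-HF, against 14 for diet at 2-d and 10 for diet at 4-wk. Slc25a30 and Slc25a15 are examples. In Slc25a15, the bright probe set gave -0.12 and -0.13 in the 2 diets, and the second one (mean level 9.87) gave 0.50 and 0.59 (unadjusted p = 0.00385 and 0.00056). With the RNA quality covariate the second gave -0.07 and -0.06. Both probe sets stayed near 0 for diet, the second at 0.08 and -0.01.

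Similar gaps narrowed with the covariate in some other members, but not in all. A second probe set of Slc25a12 gave 0.51 and 0.45 with groups only, and 0.12 and 0.00 with the covariate. The dimmer probe set of Slc25a46 gave 0.49 and 0.55 with groups only, and 0.09 and 0.09 with the covariate, and that of Slc25a10 gave 0.45 and 0.54, against 0.16 and 0.20. In Slc25a30, a probe set with a mean level of 7.82 gave 0.72 and 0.47, one at 9.79 gave -0.09 and -0.41, and the brightest gave 0.04 and -0.24. With the covariate they gave 0.47 and 0.19, 0.33 and 0.07, and 0.36 and 0.12. In Slc25a29 a gap widened instead. Its brightest probe set gave -0.03 and 0.08 with groups only, and -0.03 and 0.07 with the covariate. One with a mean level of 8.09 gave -0.24 and -0.16, against -0.30 and -0.24. Where along each transcript a probe set lies was not analysed here.

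**Figure D5:**
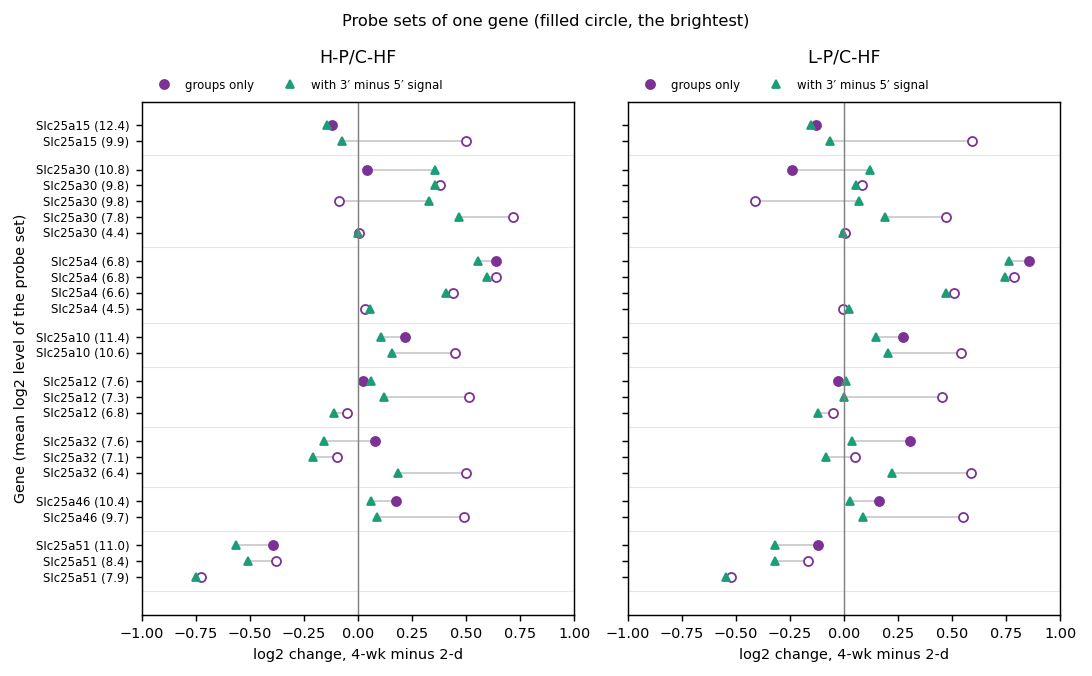
Log2 change, 4-wk minus 2-d, of every probe set of 8 Slc25 carriers within H-P/C-HF (left) and L-P/C-HF (right), with groups only (circles, filled for the brightest probe set) and with the 3′ minus 5′ control signal as a covariate (triangles); the mean log2 level of each probe set stands in brackets. The second Slc25a15 probe set moves from 0.50 and 0.59 to below 0, while 3 probe sets of Slc25a4 stay above 0.4 in both diets.

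Genes that work beside the carriers were counted as well. Of the 39 measured partners, 3 rose and 1 fell with duration within H-P/C-HF (4.01% and 1.75% of all genes did), and 3 rose and 0 fell within L-P/C-HF (4.46% and 1.14% of all genes). Mtch2, a family relative in the outer membrane that inserts proteins there, rose by 0.36 within H-P/C-HF (adjusted p = 0.00991) and 0.32 within L-P/C-HF (adjusted p = 0.0212). Arg1, the arginase that yields ornithine, fell by 0.15 within H-P/C-HF (adjusted p = 0.0229). All partner changes with duration, those of Me1, Fasn and Mdh1 included, are from the fit with groups only. Whether they hold with the RNA quality covariate is not reported here. None of the 7 import genes of the carriers (Timm22, Timm9, Timm10, Timm10b, Tomm70a, Tomm20 and Tomm22) passed for diet or duration. The carnitine acyltransferase genes Cpt1a, Cpt2 and Crat did not pass for diet or duration either. The paper, by its own ANOVA, lists Crat among its differentially expressed genes at 2-d. The glycine cleavage and haem entry list had 0 of 5 passing in each comparison.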

How the data were processed

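Liver RNA of 48 mice was hybridised to Affymetrix mouse arrays, 1 array per mouse. The deposited log2 values were made by the authors with RMA (its version is not given in the sources used here), and the log base was read from the range of 3.16 to 14.81. The table held 45101 probe sets, of which 45037 were fitted and 64, the controls, were not. Of these, 932 carried several symbols and 9160 none, and the brightest probe set stood for each of 18193 genes.

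Groups came from the labels, the one naming high protein being H-P/C-HF. limma 3.58.1 in R 4.3.3 was fitted on 47 arrays with 1 coefficient per group and eBayes with trend. Contrasts were two-sided, with Benjamini-Hochberg adjustment over the 18193 genes, in place of the methods' ANOVA with Global Error Assessment, for which ordinary one-way ANOVA at 0.001 stood as an alternative. The fit was tested on simulated data. P-values weigh each change against the spread between mice, which the groups share in the fit, and the number of arrays limits precision.

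Members, lists and named genes were chosen with earlier results of these data known. Named were members that passed in any comparison, the 3 smallest p-values of each diet and duration comparison, the main carriers of each substrate, and the highest and lowest signal of each substrate group. For partners, those that passed and the 2 smallest p-values of each diet comparison were named. Of 43 partners listed 39 were measured, and of 62 cell markers 53. Alternatives were the arrays used, normalization, probe set rule, filter, test, covariates and a replicate block. Promoters came from RefSeq (GRCm38.p6).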

Additional observations from a re-analysis of the deposited data

How the results depend on the processing

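No alternative and no array left out gave a member called for diet, at 2-d, at 4-wk, over both durations or for the difference between durations (0 of 44 throughout). For duration the counts depended on the processing. Within H-P/C-HF, 5 members were called, against 10 with array weights over 48 arrays, 9 with cyclic loess, 9 with probe sets averaged per gene, 2 with the RNA quality covariate and 1 with that covariate and B25 included. Within L-P/C-HF, 6 were called, against 1 with the RNA quality covariate and 1 with that covariate and B25 included. The mean Kupffer cell marker level as a covariate left 1 within H-P/C-HF and 0 within L-P/C-HF. The last 2 covariate settings were chosen after seeing the data. Leaving out 1 array at a time gave 4 to 6 members within H-P/C-HF and 6 to 7 within L-P/C-HF. The cause of these shifts was not tested.

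Replicate numbers did not pair the mice: the mean correlation of deviations was -0.0194 for arrays of the same number and 0.00207 for others, and 4 of 47 arrays correlated best with their own number. With the replicate block 8 members were called within H-P/C-HF, 6 within L-P/C-HF and 0 for diet.

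Among changes with an unadjusted p under 0.05, those that turned their sign were those of Slc25a11 within H-P/C-HF (-0.0807 with the RNA quality covariate, -0.0474 with B25 included as well) and within L-P/C-HF (-0.00229 with that covariate and B25), Slc25a15 with probe sets averaged (0.19 within H-P/C-HF and 0.23 within L-P/C-HF), and Slc25a36 within L-P/C-HF with the Kupffer covariate (-0.0122). Changes with an unadjusted p of 0.05 or more turned sign with the RNA quality covariate too, such as Slc25a30 within L-P/C-HF (-0.24, and 0.12 with it) and Slc25a32 within H-P/C-HF (0.08, and -0.16 with it). Centring and cyclic loess moved the median of all genes by at most 0.03. Low signals limit Slc25a4 and Slc25a24, which a filter for brighter genes leaves out with 9 other members (33 of 44 are left).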
